A study of Mus musculus with 12 samples.

Results

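The comparison described here sets Cre-negative mouse embryonic fibroblasts (MEFs) given 4-hydroxytamoxifen (4-OHT) for 5 days against untreated fibroblasts of the same genotype, across all genes. Its members are the 4 libraries labelled Cre.Neg.4OHT (libraries 5 and 6) and Cre.Neg.Uninduced (libraries 1 and 2), out of 12 libraries in the series. These cells are Cre -ve, with Ssb1 Fl/Fl and Ssb2 Fl/Fl alleles, on the strain C57BL/6, so they carry both floxed genes and lack the recombinase that would delete them. All 12 libraries share the floxed alleles. Ssb1 is the gene Nabp2 and Ssb2 the gene Nabp1, which code for the single-stranded DNA-binding subunits of the SOSS complexes. All cells came from embryos at day E13.5 and were immortalised with SV40 large T antigen, a viral protein that inactivates p53 and the RB family. The other groups used below are Cre-negative cells given ethanol, the solvent of 4-OHT, for 5 days (libraries 9 and 10), and RosaCreERT2-positive cells (Cre +ve, labelled Ssb1 Fl/F and also Ssb2 Fl/Fl) left untreated (libraries 7 and 8) or given 4-OHT for 5 days (libraries 11 and 12). In the Cre-positive cells 4-OHT also activates the recombinase.

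4-OHT is the active metabolite of tamoxifen. It binds oestrogen receptors and is used to move CreERT2, a fusion of Cre with a mutant oestrogen receptor domain, into the nucleus. The time point label of the 4-OHT libraries names tamoxifen, while the titles and the treatment protocol name 4-OHT. Untreated libraries carry no culture time, so drug, solvent and the days of culture cannot be told apart in 4-OHT against untreated. Whether the 2 libraries in each group are independent cultures is not stated, and p-values rest on the spread within such pairs, which may be technical.

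Ribosome-depleted total RNA was sequenced, and 17609 of 47517 genes in the table had enough counts to be tested. The 4 libraries held 22470388 and 27813387 counts (untreated) and 22440851 and 30078313 counts (4-OHT), within the range of all 12. Levels are in CPM, the counts of a gene scaled to a common library size and changes are log2 fold changes with their standard error (SE). A gene is said to rise or fall where its adjusted p by edgeR's quasi-likelihood test was under 0.05. Of the fibroblast markers, 11 of 12 had counts, Thy1 was at 0 in all 4 libraries, and the summed level was 7510 to 7730 CPM untreated and 8260 to 8470 CPM with 4-OHT. Markers of epithelial, haematopoietic, endothelial and skeletal muscle cells each summed to under 13 CPM in all 4 libraries. Neural markers summed to 162 to 170 CPM untreated and 180 to 184 CPM with 4-OHT, and 2 of 6 tested rose. Cartilage and bone markers summed to 71.2 to 88.5 CPM untreated and 56.5 to 58.5 CPM with 4-OHT, and 2 of 4 tested fell. Counts from the mitochondrial genome were 1.62% and 1.69% of the untreated libraries and 2.00% and 2.22% of the 4-OHT libraries. These shares take in every gene with the prefix mt-. A narrower list of 13 mitochondrial genome genes summed to 9260 and 8891 CPM untreated and 8933 and 9097 CPM with 4-OHT. None of the 11 tested rose or fell. The part these markers and shares play in the results was not tested. In bulk RNA, fewer cells of a type and less RNA per cell cannot be told apart.

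The floxed genes did not pass the test without Cre. Nabp1 (chr1:51465862-51478425, GRCm38) was at 27.5 and 25.2 CPM untreated and 26.3 and 25.7 CPM with 4-OHT, and its log2 fold change was -0.02 (SE 0.0743, adjusted p = 0.914). Nabp2 (chr10:128401395-128411492) was at 27.1 and 27.0 CPM untreated and 31.2 and 28.2 CPM with 4-OHT, with a log2 fold change of 0.13 (SE 0.0730, adjusted p = 0.235). In the Cre-positive cells the log2 changes were -2.10 for Nabp1 and -2.13 for Nabp2.

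With 4-OHT, 3388 genes differed from untreated cells, or 19.2% of those tested: 1779 rose (10.1%) and 1609 fell (9.14%). Most of the changes were small. The median size was 0.30 on the log2 scale among genes that rose and 0.27 among genes that fell, and at least a 2-fold change was reached by 200 genes that rose (1.14% of those tested) and 89 that fell (0.505%). At least a 4-fold change was reached by 61 and 9 genes. The median over all tested genes was 0.00. Leaving out 1 library lowered the total by more than 1.5 times in 2 of 4 cases, to 2164 genes without 4-OHT library 5 and to 2238 without untreated library 2.

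**Figure D1:**
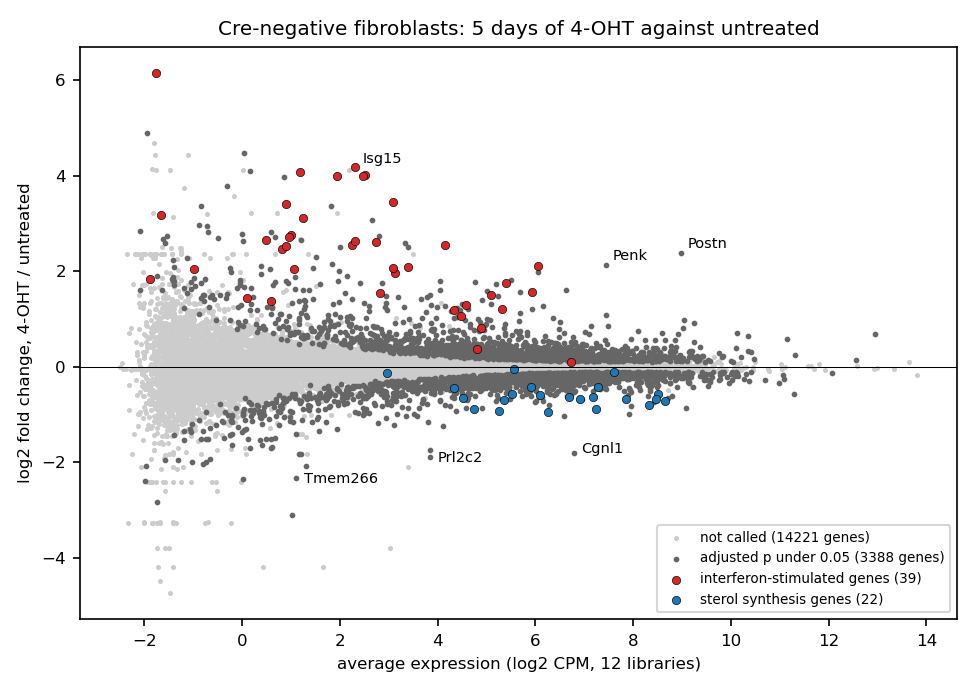
Log2 fold change of 4-OHT against untreated (vertical axis) for each of the 17609 tested genes, against its average log2 CPM over 12 libraries (horizontal axis), in Cre-negative fibroblasts. Dark grey points are the 3388 genes with an adjusted p under 0.05, red points the 39 tested interferon-stimulated genes and blue points the 22 sterol synthesis genes; red points lie above 0 and blue points below 0. The red point near 6 is Oas2, whose fitted value depends on the prior count because both untreated libraries hold 0 counts.

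Interferon-stimulated genes led the genes that rose, and of the lists described here cholesterol synthesis had the highest share of members that fell. Interferons bind receptors at the cell surface, which activate transcription factors of the STAT family. STAT2 and IRF9 are part of a complex that binds the interferon-stimulated response element (ISRE) in the promoters of antiviral genes. Cholesterol synthesis genes are driven by SREBP2, a transcription factor held in the endoplasmic reticulum by INSIG proteins when sterols are plentiful.

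The ISRE core, read as GAAA, any 2 bases and GAAA again on either strand, was searched in RefSeq promoters (GRCm38.p6, from 250 bases before to 50 bases after the start). It was found in 13 of the 23 interferon-stimulated genes that rose and have a promoter in that table (56.5%). Over the whole list, risen or not, it was in 14 of 26 (53.8%). Over all tested genes with a promoter it was in 373 of 10409 (3.58%). None of the motifs named here contains another, and a match is a description of the letters, not of binding. The 13 genes were Isg15, Ifit1, Ifit3, Gbp2, Gbp3, Gbp7, Igtp, Irgm1, Bst2, Oas1a, Stat2, Ifih1 and Ddx58. The windows below show 6 of them, chosen to cover single, overlapping and separate copies, and are printed in the direction of the gene with the matched letters in capitals. Capitals that read TTTC mark the motif on the other strand.
Isg15 (chr4:156200855-156200916, minus strand): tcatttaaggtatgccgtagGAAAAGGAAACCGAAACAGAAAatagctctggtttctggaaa
Gbp3 (chr3:142559979-142560034, plus strand): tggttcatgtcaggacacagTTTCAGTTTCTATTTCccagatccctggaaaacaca
Ifit1 (chr19:34640765-34640833, plus strand): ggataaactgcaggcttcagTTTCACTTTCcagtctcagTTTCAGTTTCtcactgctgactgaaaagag
Bst2 (chr8:71537567-71537622, minus strand): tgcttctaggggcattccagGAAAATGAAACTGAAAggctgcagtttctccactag
Irgm1 (chr11:48871421-48871470, minus strand): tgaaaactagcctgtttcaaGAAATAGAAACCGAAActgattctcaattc
Igtp (chr11:58199502-58199551, plus strand): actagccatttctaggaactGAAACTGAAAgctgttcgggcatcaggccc
The Isg15 window holds 3 overlapping matches, the first 78 bases before the start. The Ifit1 window holds 2 separate matches between 104 and 76 bases before the start.

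Of 42 interferon-stimulated genes listed, 39 were tested, 36 rose and none fell. Their median log2 change was 2.11, against 0.00 for all tested genes, and stayed at 2.11 with Oas2 set to its bound. The summed level of the list was 387.5 and 384.0 CPM in the untreated libraries and 937.6 and 908.0 CPM with 4-OHT. For each of the 39, both 4-OHT libraries were above both untreated libraries, a pattern seen in 29.1% of all tested genes. The 3 genes that did not pass were Ifit2, Rsad2 and Oasl1. Rsad2 was at 0.132 and 0.107 CPM untreated and 0.309 and 0.528 CPM with 4-OHT, close to the floor of counting.

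Isg15 and Usp18 were among the genes with the largest rises. Isg15, the ubiquitin-like protein attached to other proteins during antiviral responses, was at 0.485 and 0.358 CPM untreated (11 and 10 counts) and 8.08 and 7.13 CPM with 4-OHT (183 and 216 counts), a log2 change of 4.17 (SE 0.265, adjusted p = 1.82e-10). The 2 groups lie far apart, and the ratio of their summed counts was 18.2 with a 95% interval of 11.7 to 29.7 for counting error only. Usp18, which removes ISG15 and damps receptor signalling, was at 0.661 and 0.574 CPM untreated and 10.2 and 9.71 CPM with 4-OHT (log2 change 4.01, SE 0.196, adjusted p = 2.48e-12).

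The antiviral effectors rose with them. Oasl2, a member of the 2'-5' oligoadenylate synthetase family, was at 0.0881 and 0.430 CPM untreated and 5.39 and 4.13 CPM with 4-OHT (log2 change 4.07, SE 0.336). Oas1a, a synthetase of the same family that activates RNase L, rose by 3.40 (SE 0.265). Oas2 had 0 counts in both untreated libraries and 7 and 10 counts with 4-OHT, at least 5.43-fold higher when the untreated group is set to 3 counts. Ifit1, which binds viral RNA caps, was at 5.16 and 4.73 CPM untreated and 29.2 and 28.4 CPM with 4-OHT (log2 change 2.55, SE 0.113, adjusted p = 5.52e-13). Its neighbour in the family Ifit3 rose by 0.81 from a higher starting level of 28.8 and 27.1 CPM. Bst2, a membrane tether of budding viruses, went from 28.8 and 32.1 CPM to 135 and 129 CPM (log2 change 2.11).

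Interferon-inducible GTPases, which act on the vacuoles of intracellular pathogens, were among the 12 largest rises of genes with an average above 1 on the log2 CPM scale. Gbp3 was at 1.37 and 1.72 CPM untreated and 18.2 and 16.1 CPM with 4-OHT (log2 change 3.45, SE 0.152). Irgm2 rose by 3.37 (SE 0.244) and Igtp by 2.63 (SE 0.218). Mx2, which GENCODE M21 annotates as a polymorphic pseudogene, rose by 3.12 (SE 0.285). The apoptosis factor Xaf1 was at 0.573 and 0.860 CPM untreated and 11.2 and 12.0 CPM with 4-OHT (log2 change 3.98, SE 0.176). The antigen presentation genes Tap1 and H2-Q4 are named here as single genes. The class I gene H2-Q4, which is not on the list, rose by 2.65 (SE 0.224), and Tap1, the peptide transporter that loads class I molecules, rose by 2.52 (SE 0.235). H2-Q4, Apol9b and the Gbp and Ifit genes have close relatives in the genome, so reads could be split between copies.

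The sensors and the transcription factors of the pathway were higher as well. Ddx58, which codes for the RNA sensor RIG-I, was at 34.3 and 33.8 CPM untreated and 101 and 100.2 CPM with 4-OHT (log2 change 1.56, SE 0.0517, adjusted p = 5.21e-15). Ifih1, which codes for the RNA sensor MDA5, rose by 2.09 (SE 0.121). Irf9 was at 19.7 and 18.2 CPM untreated and 63.4 and 64.1 CPM with 4-OHT (log2 change 1.75, SE 0.0719, adjusted p = 1.90e-13). Stat2 rose by 1.07 (SE 0.0868), Irf7 by 2.54 (SE 0.167) and Irf1 by 0.37 (SE 0.0812).

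Counts of the interferon genes themselves stayed near 0. Summed over 21 interferon genes, a set chosen after the results were seen, there were 2 and 5 counts in the untreated libraries and 2 and 4 with 4-OHT. Ifnb1 had 1 and 0 counts untreated and 0 and 0 with 4-OHT, which allows up to 0.134 and 0.0997 CPM at a floor of 3 counts a library. At this depth no difference in interferon RNA was detectable. Among the receptors, Ifngr1 rose by 0.29 (SE 0.0444, adjusted p = 5.86e-05), while Ifnar1 was at a log2 change of 0.00 (SE 0.0441, adjusted p = 0.979).

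**Figure D2:**
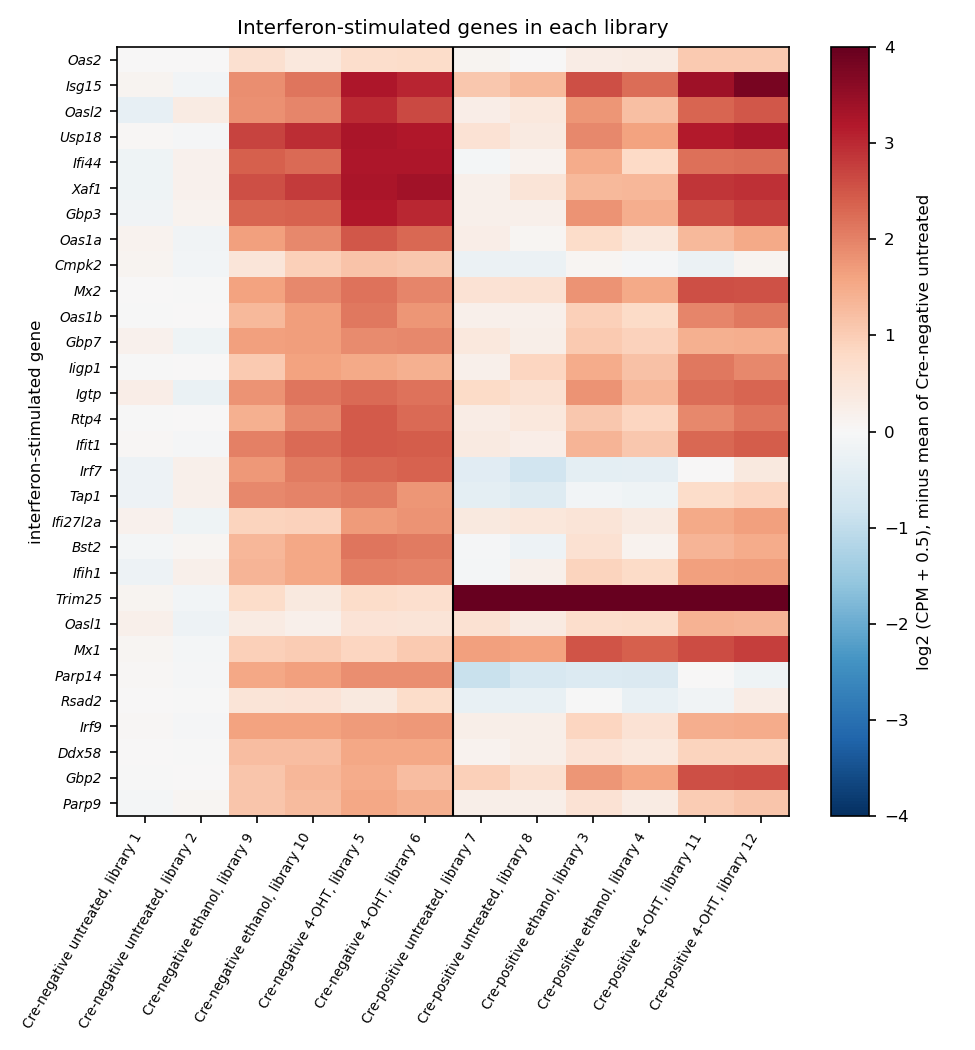
Each row is 1 of the 30 interferon-stimulated genes with a log2 change of at least 1.5 in Cre-negative cells, ordered by that change, and each column is 1 of the 12 libraries. Colour gives log2 (CPM + 0.5) minus the mean of the 2 Cre-negative untreated libraries, from -4 (blue) to 4 (red). The Cre-negative 4-OHT and ethanol columns are red for most genes, the ethanol columns more weakly, and Trim25 is beyond the scale in the Cre-positive libraries.

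Cells given ethanol alone also had higher interferon-stimulated genes. Ethanol against untreated shares the untreated libraries with 4-OHT against untreated, so the values are set side by side and not correlated. With ethanol, 4313 genes passed (24.5%), of which 12.5% of tested genes rose and 12.0% fell. Of the 39 interferon-stimulated genes 35 rose, with a median log2 change of 1.78. The ethanol total fell to 2759 genes without untreated library 2 and to 2805 without ethanol library 10.

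The test of 4-OHT against ethanol, which shares the 4-OHT libraries, called 1054 genes (5.99%), of which 587 were higher with 4-OHT (3.33%) and 467 lower (2.65%). Within it 15 of the 39 interferon-stimulated genes were higher with 4-OHT, none was lower, and the median was 0.31. Isg15 was at 2.83 and 3.56 CPM with ethanol, between the untreated and the 4-OHT values (4-OHT against ethanol 1.23, adjusted p = 0.000131). Irf9 was at 58.8 and 58.5 CPM with ethanol and its 4-OHT against ethanol value was 0.12 (adjusted p = 0.288). This count depends on single libraries: leaving out any 1 of the 4 gave 301 to 609 genes, lowest without 4-OHT library 5 (301), then without ethanol library 10 (344) and ethanol library 9 (442) and without 4-OHT library 6 (609). Fitted on these 4 libraries alone, it was 1609.

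Cholesterol synthesis fell at nearly every step. Of 22 synthesis genes tested 20 fell and none rose, with a median log2 change of -0.65. The summed level was 3354 and 3277 CPM untreated and 2179 and 2131 CPM with 4-OHT. Only Tm7sf2 and Ggps1 did not pass. Ggps1, which makes geranylgeranyl diphosphate on a side branch, was at 45.6 and 43.2 CPM untreated and 42.7 and 43.3 CPM with 4-OHT.

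The early steps make mevalonate from acetyl-CoA. Hmgcs1, the HMG-CoA synthase, was at 386 and 387 CPM untreated and 276 and 241 CPM with 4-OHT (log2 change -0.58, SE 0.0530). The untreated libraries lay above both 4-OHT libraries. Mvd, which makes isopentenyl diphosphate, fell by 0.93 (SE 0.0685) and Fdps, which makes farnesyl diphosphate, by 0.88 (SE 0.0787).

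The late steps close and trim the sterol ring. Sqle, which oxidises squalene, fell by 0.68 (SE 0.0365). Lss (chr10:76531588-76557138), which makes lanosterol, was at 214 and 210 CPM untreated and 112 and 118 CPM with 4-OHT (log2 change -0.88, SE 0.0416, adjusted p = 1.71e-12). Hsd17b7 (chr1:169949535-169969241), a sterol ketoreductase, was at 72.9 and 70.3 CPM untreated and 36.4 and 37.2 CPM with 4-OHT, the lowest log2 change of the list at -0.96 (SE 0.0492, adjusted p = 5.84e-12). Msmo1 and Cyp51, which demethylate the ring, fell by 0.79 (SE 0.0420) and 0.71 (SE 0.0379). Ebp, the sterol isomerase known to bind tamoxifen, was at 47.5 and 47.0 CPM untreated, 35.9 and 34.7 CPM with 4-OHT and 38.0 and 36.5 CPM with ethanol (log2 change of 4-OHT against untreated -0.42, SE 0.0558).

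**Figure D3:**
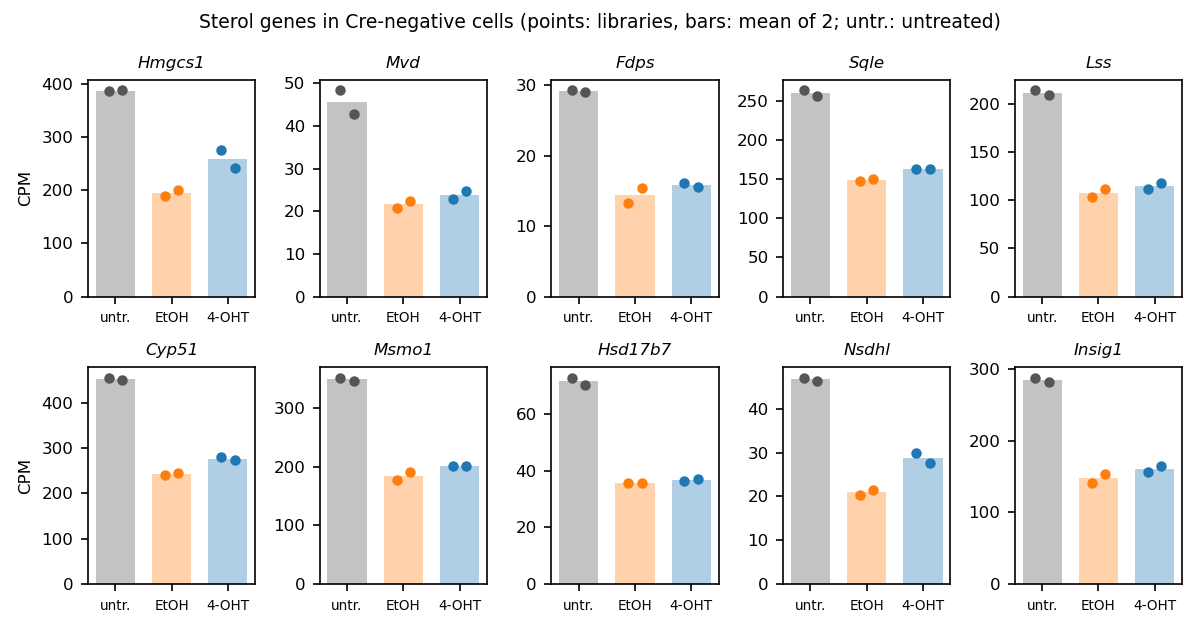
CPM (vertical axes, from 0) of 9 sterol synthesis genes and of Insig1 in Cre-negative libraries that were untreated, given ethanol (EtOH) or given 4-OHT. Points are libraries and bars are the mean of 2. In each panel both untreated points lie above the ethanol and 4-OHT points, as for Lss at 214 and 210 CPM against 112 and 118 CPM with 4-OHT.

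Regulators of the pathway moved the same way, in part. Of 14 genes of sterol regulation and uptake 6 fell and 3 rose. Insig1, itself an SREBP target, was at 289 and 282 CPM untreated and 156 and 165 CPM with 4-OHT (log2 change -0.83, SE 0.0452, adjusted p = 1.46e-11). Srebf2, which codes for SREBP2, fell by 0.35 (SE 0.0537). The 3 that rose were Npc2, a lysosomal cholesterol carrier (0.23, SE 0.0421), Mylip, a ubiquitin ligase of lipoprotein uptake (0.38, SE 0.101), and the SREBP protease gene Mbtps1 (0.13). Abca1, the cholesterol efflux pump, rose from 2.95 and 2.62 CPM to 6.00 and 7.13 CPM (log2 change 1.26, SE 0.170, adjusted p = 1.25e-05).

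Fatty acid synthesis, driven by the related factor SREBP1, fell less. Of 12 genes 8 fell and none rose, with a median of -0.29. Fasn, the fatty acid synthase, was at 505 and 539 CPM untreated and 409 and 419 CPM with 4-OHT (log2 change -0.34, SE 0.0498). Elovl6, which elongates its product, fell by 0.41 (SE 0.0366). The desaturase Scd2, counted with the LXR targets, was at 823 and 832 CPM untreated, 692 and 631 CPM with 4-OHT and 417 and 431 CPM with ethanol.

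With ethanol alone the sterol genes were lower still. In ethanol against untreated 20 of the 22 synthesis genes fell, with a median of -0.85, and in 4-OHT against ethanol 10 of the 22 were higher with 4-OHT, with a median of 0.14. Hmgcs1 was at 188 and 200 CPM with ethanol, below the 4-OHT libraries (4-OHT against ethanol 0.41, SE 0.0539, adjusted p = 8.27e-05). The sterol response element core TCACNCCAC, on either strand, was found in the promoter of 1 of the 17 synthesis genes with one in RefSeq, against 1.37% of tested genes. That gene is Hmgcs1, and its window is shown with the motif in capitals, 137 bases before the start.
Hmgcs1 (chr13:119690194-119690242, plus strand): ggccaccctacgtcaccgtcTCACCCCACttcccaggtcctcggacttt

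Smaller shifts ran through the cell division genes. Of 39 genes of G2 and mitosis 28 rose and none fell, with a median log2 change of 0.21. Over all tested genes 10.1% rose and 9.14% fell. With ethanol 21 of the 39 rose and none fell, with a median of 0.13. In 4-OHT against ethanol 5 were higher with 4-OHT and none was lower. The summed level was 7742 and 7593 CPM untreated and 8937 and 8891 CPM with 4-OHT. Kif23, a kinesin of the midbody at the end of division, was at 157 and 155 CPM untreated and 220 and 213 CPM with 4-OHT (log2 change 0.47, SE 0.0424, adjusted p = 4.69e-08). Aurkb, a kinase of the chromosomal passenger complex, was at 84.5 and 85.9 CPM untreated and 113 and 113 CPM with 4-OHT (log2 change 0.41, SE 0.0422). Kif11, the kinesin that separates spindle poles, rose by 0.37 (SE 0.0390). The CCAAT box, on either strand, was in 18 of the 24 genes of this list that rose and have a RefSeq promoter (75.0%). Over the whole list, risen or not, it was in 23 of 32 (71.9%), and over tested genes in 42.8%.

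The genes of S phase did not move as a block, though 30.8% passed, against 19.2% of all tested genes (10.1% rose and 9.14% fell). Of 39 genes 9 rose and 3 fell, with a median of 0.05, and the count that rose was 5 without untreated library 2 or without 4-OHT library 6. The 3 that fell were E2f1, an activator of S phase genes, at 39.0 and 38.2 CPM untreated and 28.5 and 31.2 CPM with 4-OHT (log2 change -0.37, SE 0.0611, adjusted p = 0.000155), the replication licensing gene Cdc6 (-0.23, SE 0.0619) and the helicase subunit gene Mcm2 (-0.13, SE 0.0391). Among those that rose, Cdt1, a licensing factor, was at a log2 change of 0.28 (SE 0.0489) and Pola1, a subunit of the polymerase that starts DNA synthesis, at 0.19 (SE 0.0392).

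Replication-dependent histones, whose RNA is made in S phase, were higher. Of 63 tested genes 37 rose and none fell, with a median of 0.23, and 24 rose without 4-OHT library 6. Hist1h3f, an H3 gene (chr13:23544052-23545312), was at 375 and 386 CPM untreated, 474 and 516 CPM with 4-OHT and 550 and 532 CPM with ethanol (log2 change of 4-OHT against untreated 0.38, SE 0.0411, adjusted p = 6.14e-07). With ethanol 51 of the 63 rose, and in 4-OHT against ethanol 26 were lower with 4-OHT and none was higher. Histone genes are near-identical copies, so the count of each single gene is uncertain.

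In lists of genes that restrain division a larger share passed than the 19.2% of all tested genes. Of 28 p53 target genes 13 rose and 2 fell (53.6%), and with ethanol 15 rose and 3 fell. Of 25 quiescence and cell cycle inhibitor genes 12 rose and 2 fell (56.0%), and with ethanol 12 rose and 3 fell. In 4-OHT against ethanol 3 p53 targets were higher and 1 lower, and 3 quiescence genes were higher and 2 lower. Cdkn1a (chr17:29090976-29100727), which codes for the CDK inhibitor p21, was at 5.16 and 5.13 CPM untreated and 13.3 and 11.6 CPM with 4-OHT (log2 change 1.27, SE 0.120, adjusted p = 9.07e-08). It is on both lists, and with ethanol it was at 13.7 and 12.9 CPM. Txnip (chr3:96557957-96561883), an inhibitor of thioredoxin and of glucose uptake, was at 9.87 and 11.6 CPM untreated, 36.1 and 37.5 CPM with 4-OHT and 48.6 and 49.2 CPM with ethanol (log2 change of 4-OHT against untreated 1.77, SE 0.0820, adjusted p = 1.28e-12). In both genes the 4-OHT and the untreated libraries were well apart. Trp53inp1, a p53 target linked to autophagy and cell death, rose by 1.19 (SE 0.0842) and Phlda3, an inhibitor of AKT, by 0.45 (SE 0.0616).

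**Figure D4:**
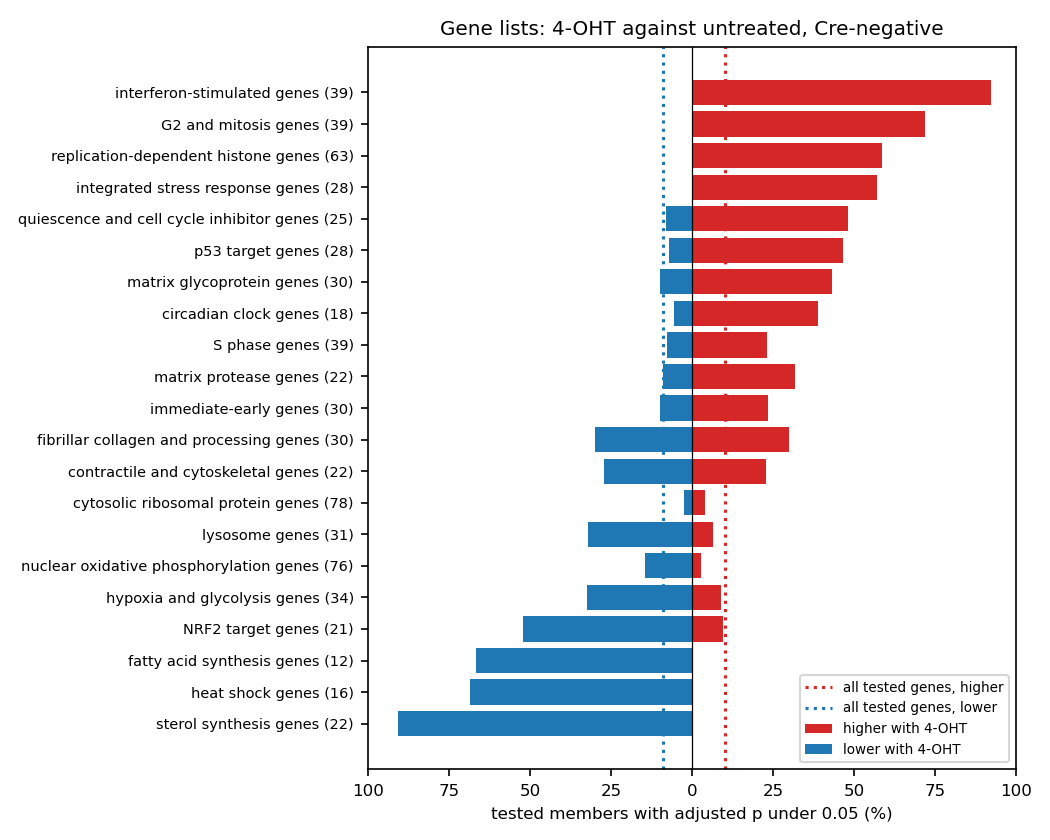
Share (%) of the tested members of 21 gene lists that rose (red, to the right) or fell (blue, to the left) with 4-OHT in Cre-negative cells, with the number of tested members in brackets and dotted lines at the share of all tested genes (10.1% higher, 9.14% lower). Interferon-stimulated genes stand at the top with 36 of 39 higher and sterol synthesis genes at the bottom with 20 of 22 lower.

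Stress programmes moved in different directions. The integrated stress response is driven by ATF4 when translation is slowed, and raises amino acid supply genes. Of its 28 tested genes 16 rose and none fell, with a median of 0.15, and with ethanol 23 rose, with a median of 0.28. Vldlr (chr19:27216484-27254231), a lipoprotein receptor, was at 30.8 and 34.6 CPM untreated and 55.5 and 61.5 CPM with 4-OHT (log2 change 0.84, SE 0.0642, adjusted p = 3.65e-09). Cth, which makes cysteine, was at 23.2 and 24.7 CPM untreated and 39.7 and 41.3 CPM with 4-OHT (log2 change 0.76, SE 0.0659). Ddit3, which codes for CHOP, was at 27.2 and 28.1 CPM untreated, 39.7 and 43.6 CPM with 4-OHT and 54.8 and 52.2 CPM with ethanol. It rose with 4-OHT by 0.59 (SE 0.0624) and was lower with 4-OHT than with ethanol by a log2 value of -0.36 (SE 0.0577, adjusted p = 0.000672). Atf4 itself did not pass, at 355 and 351 CPM untreated and 367 and 376 CPM with 4-OHT (log2 change 0.07, SE 0.0407, adjusted p = 0.246).

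Chaperones of the heat shock response, the targets of HSF1, were lower. Of 16 tested genes 11 fell and none rose, with a median of -0.20. The summed level was 7015 and 6732 CPM untreated and 5805 and 5745 CPM with 4-OHT. With ethanol 13 of the 16 fell, with a median of -0.33. In 4-OHT against ethanol 5 were higher with 4-OHT and none was lower. Hspa4l (chr3:40744495-40796103), an exchange factor of the HSP70 family, was at 823 and 817 CPM untreated and 454 and 450 CPM with 4-OHT (log2 change -0.86, SE 0.0344, adjusted p = 1.30e-13). Hsph1, a member of the same family, fell by 0.53 (SE 0.0364). Hspa1b, an inducible HSP70, was at 34.5 and 30.8 CPM untreated and 18.5 and 18.6 CPM with 4-OHT (log2 change -0.82, SE 0.0745), and it is nearly identical to Hspa1a. The HSP40 gene Dnajb1 fell by 0.33 (SE 0.0455).

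NRF2 targets, which handle oxidants and electrophiles, also fell for the most part. Of 21 tested genes 11 fell and 2 rose, with a median of -0.20. With ethanol 13 of the 21 fell and 2 rose, with a median of -0.23. In 4-OHT against ethanol 1 was higher with 4-OHT and none was lower. Nqo1 (chr8:107388225-107403206), a quinone reductase, was at 53.3 and 50.8 CPM untreated and 25.6 and 25.2 CPM with 4-OHT (log2 change -1.03, SE 0.0493, adjusted p = 1.78e-12). The pentose phosphate genes G6pdx and Pgd fell by 0.58 (SE 0.0395) and 0.49 (SE 0.0411). Slc7a11, the cystine transporter and also an ATF4 target, went the other way, from 15.8 and 15.8 CPM to 26.3 and 26.5 CPM (log2 change 0.74, SE 0.0731). Outside this list Aldh3a1, an aldehyde dehydrogenase, fell from 2.38 and 2.58 CPM to 0.795 and 0.627 CPM (log2 change -1.82, SE 0.232).

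In 4-OHT against untreated, oestrogen receptor genes and known targets gave a count near the background. Of 14 tested 1 rose and 2 fell (21.4%), against 19.2% of all tested genes. With ethanol none rose and 2 fell. In 4-OHT against ethanol 2 were higher with 4-OHT and none was lower, against 3.33% and 2.65% of all tested genes. Esr1, the receptor that 4-OHT binds, was at 9.78 and 11.2 CPM untreated and 11.6 and 12.3 CPM with 4-OHT (log2 change 0.19, SE 0.0912, adjusted p = 0.169). Cited2, a transcriptional cofactor, rose by 0.44 (SE 0.0875). Gper1, a membrane receptor for oestrogen, fell by 0.74 (SE 0.113) and Xbp1, a factor of the unfolded protein response, by 0.27 (SE 0.0537). With ethanol Cited2 was at 0.00, Gper1 at -0.92 and Xbp1 at -0.13. In 4-OHT against ethanol Cited2 was higher (0.44, SE 0.0868, adjusted p = 0.00352), and Gper1 and Xbp1 did not pass.

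The extracellular matrix was remodelled at the RNA level in both directions. Of 30 tested matrix glycoprotein genes 13 rose and 3 fell, with a median of 0.31, and of 30 fibrillar collagen and processing genes 9 rose and 9 fell. Postn (chr3:54361109-54391037), a matricellular protein of remodelling tissue, was at 33.6 and 31.3 CPM untreated and 168 and 171 CPM with 4-OHT (log2 change 2.39, SE 0.0539, adjusted p = 1.08e-17). With ethanol it was at 164 and 160 CPM, and 4-OHT against ethanol gave 0.06 (adjusted p = 0.488). Tnc, tenascin C, rose by 0.86 (SE 0.0548). Col3a1, a fibrillar collagen chain, rose from 160 and 156 CPM to 302 and 323 CPM (log2 change 0.99, SE 0.0491), while Col6a3, a chain of the beaded filament collagen, fell from 539 and 567 CPM to 358 and 360 CPM (log2 change -0.62, SE 0.0429). Of the contractile genes 5 of 22 rose and 6 fell, and with ethanol 5 rose and 2 fell. Over all tested genes 10.1% rose and 9.14% fell with 4-OHT. Tagln and Acta2, markers of contractile fibroblasts, were among those that rose, by 0.92 (SE 0.0482) and 0.58 (SE 0.0375). With ethanol they rose by 1.13 and 0.62. Among those that fell was Tpm1 (-0.25, SE 0.0354), at -0.42 with ethanol. The secreted WNT modulator Sfrp2 (chr3:83766321-83774316) rose from 19.6 and 20.6 CPM to 83.2 and 77.1 CPM (log2 change 1.99, SE 0.0623, adjusted p = 2.05e-15). Penk, the enkephalin precursor, named here after its values were seen, rose from 40.7 and 45.9 CPM to 192 and 189 CPM (log2 change 2.13, SE 0.0531).

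Of the 12 largest falls chosen by rule, 8 also passed the test with ethanol and 4 did not (Cgnl1, Lama3, Tmem200b and Dusp9). In 4-OHT against ethanol 3 of the 12 passed (Cgnl1, Tmem266 and Lama3). Over all tested genes 12.0% fell with ethanol and 2.65% were lower in 4-OHT against ethanol. Both tests share libraries with the comparison that chose the 12, so these counts are a description only. Cgnl1 (chr9:71626509-71771602), a junction protein of the cingulin family, was at 121 and 125 CPM untreated, 33.6 and 36.7 CPM with 4-OHT and 116 and 114 CPM with ethanol. Its log2 change was -1.80 against untreated (SE 0.0497, adjusted p = 2.19e-16) and -1.71 against ethanol (SE 0.0497, adjusted p = 1.89e-15), and ethanol against untreated gave -0.09 (adjusted p = 0.134). The ethanol libraries lay beside the untreated ones, and only the 4-OHT libraries stood apart. Tmem266 (chr9:55326913-55438345), a membrane protein gene, was at 6.12 and 6.81 CPM untreated, 0.971 and 1.52 CPM with 4-OHT and 4.77 and 4.82 CPM with ethanol. Its log2 change was -2.34 against untreated (SE 0.194) and -1.90 against ethanol (SE 0.202, adjusted p = 7.51e-06), with -0.44 for ethanol against untreated (adjusted p = 0.0409). Gjb2, the gap junction protein connexin 26, rose from 18.6 and 18.4 CPM to 37.8 and 36.1 CPM with 4-OHT and was at 24.4 and 25.2 CPM with ethanol (4-OHT against ethanol 0.57, SE 0.0828, adjusted p = 0.000234).

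Several other genes fell with ethanol too. Prl2c2 (chr13:12996125-13005383), a growth factor of the prolactin family also called proliferin, was at 48.6 and 50.9 CPM untreated, 12.8 and 14.0 CPM with 4-OHT and 12.3 and 12.5 CPM with ethanol (log2 change of 4-OHT against untreated -1.89, SE 0.0713), and it has near-identical copies. Tnnt2, cardiac troponin T, fell from 5.86 and 6.42 CPM to 1.54 and 1.88 CPM (log2 change -1.82, SE 0.166), and was at 1.67 and 1.88 CPM with ethanol. Slco4a1 (chr2:180456245-180474867), an organic anion transporter, fell from 22.5 and 20.6 CPM to 6.67 and 6.21 CPM (log2 change -1.75, SE 0.120), and was at 8.80 and 7.01 CPM with ethanol. Phex, Srpx2 and Ccbe1 fell by 1.42 (SE 0.174), 1.31 (SE 0.117) and 1.24 (SE 0.111), and with ethanol by 2.02, 0.92 and 0.94. Tmem200b, Lama3 and Dusp9 were carried by few reads, and none of them passed in ethanol against untreated. They reached the rule's average log2 CPM of 1 over all 12 libraries through the Cre-positive ones. Their means were 0.196, 0.426 and 0.858 CPM in untreated Cre-negative cells and 3.16, 2.94 and 4.99 CPM in untreated Cre-positive cells. Lama3, a laminin chain, had 12 and 9 counts untreated, 3 and 2 with 4-OHT and 11 and 19 with ethanol (4-OHT against ethanol -2.47, SE 0.550, adjusted p = 0.00911). Dusp9, a MAP kinase phosphatase, had 17 and 27 counts untreated, 8 and 10 with 4-OHT and 13 and 19 with ethanol. Tmem200b had 4 and 6 counts untreated and 0 and 1 with 4-OHT (5 and 3 with ethanol), a 4-OHT to untreated ratio of 0.0957 with a 95% interval of 0.00221 to 0.673 for counting error only.

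The same 4-OHT course was also compared with untreated cells in the Cre-positive line, where the 2 floxed genes are deleted as well. There 6901 genes passed (39.2%), with 21.0% of tested genes higher and 18.2% lower. Of the 1779 genes that rose in Cre-negative cells 871 also rose in Cre-positive cells, which is 49.0% of the Cre-negative and 23.6% of the Cre-positive list, and 222 fell there. Of the 1609 that fell 650 also fell in Cre-positive cells, 40.4% and 20.3% of the lists, and 277 rose there. Across the 17609 genes the log2 changes of the lines had a Pearson correlation of 0.23, a description only, since genes are not independent replicates. The difference between the lines passed the test for 4190 genes (23.8%).

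The interferon and sterol lists kept their direction in both lines. In Cre-positive cells 35 of the 39 interferon-stimulated genes rose, with a median of 1.70, and the test of the difference called 17 higher and 1 lower in Cre-negative cells. The summed level went from 351.4 and 353.5 CPM to 638.4 and 666.5 CPM. Of the sterol synthesis genes 19 of 22 fell and 1 rose, with a median of -0.40. Hsd17b7 was at a log2 change of -0.10 there (adjusted p = 0.0610), and its change differed between the lines by -0.86 (SE 0.0652, adjusted p = 1.14e-08).

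Other lists differed between the lines. The test of the difference called 27 of the 39 G2 and mitosis genes and 20 of the 39 S phase genes higher in Cre-negative cells, against 11.7% of all tested genes. In Cre-positive cells 12 of the G2 and mitosis genes fell and 4 rose, and 21 S phase genes fell and none rose. For the integrated stress response 17 of 28 differences were positive and 1 was negative, and for heat shock genes 10 of 16 were negative and none was positive, against 12.0% of all tested genes. Kif23 changed by -0.27 in Cre-positive cells and differed by 0.74 (SE 0.0603, adjusted p = 2.58e-08). Hsph1 rose there by 0.17 and differed by -0.70 (SE 0.0509). Cgnl1 was at 0.04 (adjusted p = 0.498) in Cre-positive cells, where it was at 128 and 121 CPM untreated and 132 and 125 CPM with 4-OHT.

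**Figure D5:**
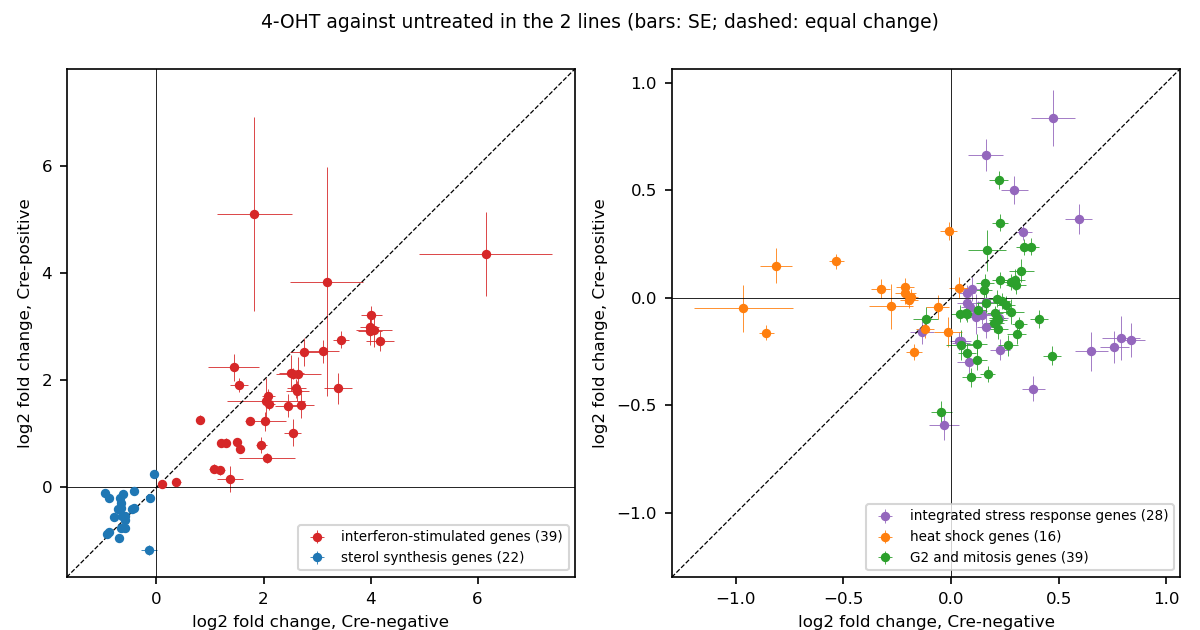
Log2 fold change of 4-OHT against untreated in Cre-positive cells (vertical axes) against that in Cre-negative cells (horizontal axes), 1 point a gene, with bars of 1 SE and a dashed line at equal change. On the left, interferon-stimulated genes (red, 39) and sterol synthesis genes (blue, 22) mostly lie on the same side of 0 in both lines; on the right, most G2 and mitosis genes (green, 39) lie right of 0 and heat shock genes (orange, 16) left of 0, with values on both sides of 0 in Cre-positive cells.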

How the data were processed

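The 12 libraries were made from ribosome-depleted total RNA with a stranded kit and sequenced as read pairs, per the labels' protocols. The authors deposited a table of expected counts per gene, given as whole numbers. Per the submitters' processing notes the tools were RSEM 1.2.30, STAR 2.5.2a, cutadapt 1.11 and edgeR, with the build GRCm38. The strand setting and annotation used for counting are unknown here, so reads of antisense partners cannot be told apart. Genes were kept by the filterByExpr function of edgeR 4.0.16 (R 4.3.3), libraries were scaled by TMM, and 1 mean per group was fitted to all 12 libraries with edgeR's quasi-likelihood test, with Benjamini-Hochberg adjustment over 17609 genes. Each comparison is a contrast of 2 libraries against 2, except the difference between the lines, which sets 2 such contrasts against each other. On simulated counts for 4-OHT against untreated (17112 genes, 50 changed per fold), 68% of 1.25-fold, 94% of 1.5-fold and 100% of 2-fold changes were recovered. DESeq2 1.42.0, another scaling, other filters, fewer groups and leaving out single libraries were alternatives.

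The gene lists and genes were chosen with earlier results of these data known. Named by rule are the floxed genes and up to 12 genes per direction with the largest change. The latter are taken from genes that pass, reach 1 in average log2 CPM over all 12 libraries and do not overlap between the groups. The rule also names up to 4 members per list with the smallest p. Other members are named for their step in a pathway, after their values were seen. Coordinates are from GENCODE M21, where 45126 of 47517 symbols matched 1 gene. A few genes are not reported by name here.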

Additional observations from a re-analysis of the deposited data

Results flagged for a closer look

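A first set of results differs between the lines: the 4-OHT change in Cre-negative cells minus that in Cre-positive cells exceeded 1.5-fold by edgeR's glmTreat test, with adjusted p from 1.85e-11 to 0.0397. Of all tested genes 141 passed this test, and the 18 given here are those among the genes named by rule, so larger differences lie outside them. For the floxed genes the difference was 2.08 for Nabp1 and 2.26 for Nabp2, and only the Cre-positive cells carry the recombinase. The difference was positive for Malrd1 (2.13), Postn (1.57), Sulf2 (1.28), Vldlr (1.03), Cth (0.99), Matn2 (0.95) and Ddx58 (0.84). It was negative for Phex (-2.16), Cgnl1 (-1.84), Tnnt2 (-1.51), Fabp4 (-1.45), Slco4a1 (-1.40), Neu1 (-1.03), Pde4b (-0.97), Hspa1b (-0.96) and Hsd17b7 (-0.86).

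In Neu1, a lysosomal sialidase, the change was -0.67 in Cre-negative and 0.37 in Cre-positive cells. In Fabp4, a fatty acid carrier, it was -0.60 and 0.85. In Phex, a membrane endopeptidase, it was -1.42 and 0.74.

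A second signal lies in libraries that no comparison above uses. In the Cre-positive ethanol libraries the interferon-stimulated genes summed to 463.5 and 408.7 CPM, a mean of 436.1, against 351.4 and 353.5 CPM in untreated Cre-positive libraries.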

How the results depend on the processing

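No paired analysis was run. The library numbers 1 to 12 occur once each and do not show whether cultures were matched between groups. Leaving out 1 library, where the lone library left is assumed to vary like the other groups, gave 2164 to 2467 genes for 4-OHT against untreated, 2759 to 3284 for ethanol against untreated and 301 to 609 for 4-OHT against ethanol. Fitted on its own libraries alone, 4-OHT against ethanol gave 1609 genes; the cause was not tested. For 4-OHT against untreated DESeq2 called 2472 genes, DESeq2 size factors in edgeR 3418, no filter on low counts 3193, a filter of 1 CPM in 2 libraries 3495, and the 6 Cre-negative libraries alone 3670. DESeq2 called 2989 for ethanol against untreated, 745 for 4-OHT against ethanol, 5174 in Cre-positive cells and 3139 for the difference. Of 194 named genes 188 passed, 163 kept their direction and side of the threshold under every alternative run, and none reversed. Of 1937 such values 84 lost and 11 gained the call. Genes that rose numbered 1119 without untreated library 2 and 1183 without 4-OHT library 5, and genes that fell 981 without 4-OHT library 5. Only 16 gene lists were rerun under the alternatives. Circadian genes that rose numbered 4 without untreated library 2, and hypoxia and glycolysis genes that fell 7 without 4-OHT library 5. Depth limits genes held by few reads, such as Oas2 and Tmem200b.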

Other observations

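Some lists not described above moved for a larger share of members than the 10.1% of all tested genes that rose and the 9.14% that fell. Of 18 circadian clock genes 7 rose (4 without untreated library 2) and 1 fell, with a median log2 change of 0.24. With ethanol 2 of the 18 rose and 2 fell, with a median of 0.08. In 4-OHT against ethanol 5 were higher with 4-OHT and 1 was lower, against 3.33% and 2.65% of all tested genes. The clock repressor Per2 was at 4.41 and 4.27 CPM untreated and 5.87 and 6.41 CPM with 4-OHT (log2 change 0.51, SE 0.140, adjusted p = 0.0121). Of 31 lysosome genes 10 fell and 2 rose, while in Cre-positive cells 19 rose and 5 fell. Of 34 hypoxia and glycolysis genes 11 fell (7 without 4-OHT library 5) and 3 rose.

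Of 78 cytosolic ribosomal protein genes 3 rose and 2 fell, and of 76 nuclear oxidative phosphorylation genes 2 rose and 11 fell.

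The nuclear long non-coding RNA Neat1 fell from 229 and 245 CPM to 114 and 125 CPM (log2 change -0.99, SE 0.113, adjusted p = 1.35e-06). Its share of all counts was 0.0115% and 0.0126% with 4-OHT and 0.0104% and 0.0137% with ethanol. By chromosome, 15.6% of 647 tested genes on chromosome 13 rose and 6.65% fell. Chromosome 13 also carries replication-dependent histone genes that rose, such as Hist1h3f and Hist1h2bm. Their part in this share was not tested. On the X chromosome 5.46% of 641 rose and 13.4% fell.

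Malrd1 (chr2:15526479-16255555), a gene of the bile acid pathway in gut, was among the largest rises and is on none of the lists. It was at 1.59 and 1.36 CPM untreated, 12.1 and 12.4 CPM with 4-OHT and 11.6 and 10.5 CPM with ethanol (log2 change 3.07, SE 0.146, adjusted p = 1.71e-12).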
